A study of Mus musculus with 6 samples.

Results

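Genes of the mitotic spindle, the kinetochore and cytokinesis were examined in mouse blood stem and progenitor cells with and without Med12. This protein belongs to the CDK8 module of Mediator, a coactivator that carries signals from transcription factors to the polymerase. The set was a list of 38 gene symbols, and it took every probe set that the platform annotation assigned to exactly 1 of them. That gave 78 of the 45037 probe sets tested, for 37 of 18193 genes. Ccnb1 had no such probe set, and its expression was not analysed here. Unless a probe set is named, the values of a gene are those of the probe set with the highest mean over all arrays.

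Knockout cells came from Med12Flox;MxCre mice of B6/129 background, in which Cre recombinase under the interferon-responsive Mx promoter removes a floxed Med12 allele after injection of pI:pC, a synthetic double-stranded RNA. Control cells came from mice of the same background and were taken at the same time, 4 days after pI:pC; their alleles, and whether they carried Cre, are not stated in the labels. Both groups were marrow cells sorted as lineage negative and positive for c-Kit and Sca1, with 3 arrays per group named here by group and replicate number. The labels do not say that the arrays of a group came from separate mice, so the p-values rest on a spread between samples that may be technical. The Mx promoter responds to interferon in many cell types, so deletion in these mice is not limited to blood cells. Both groups had been exposed to an agent that itself induces interferon.

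A dividing cell enters mitosis when CDK1 joins its A- and B-type cyclins, with Aurora and Polo kinases acting beside it. Kinesin motors then build the spindle and kinetochores tie chromosomes to it; the anaphase-promoting complex releases the sister chromatids, and cytokinesis parts the daughter cells. Transcripts of these genes accumulate in G2 and M phase, largely through promoters that carry a CHR element (cell cycle genes homology region) and boxes for the factor NF-Y, so they mark dividing cells. In marrow, most long-term stem cells are quiescent and the progenitors around them divide more often.

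The signals are linear intensities on a scale that the authors set per array. The median signal was 26.7 to 26.9 on control arrays and 16.6 to 21.3 on knockout arrays. Med12 itself had signals of 278.6, 837.4 and 441.6 in controls and 89.1, 100.4 and 86.4 in knockouts, groups that did not overlap, with an adjusted p of 0.0796 in limma's test. The position of its probe set relative to the deleted part is not known here. Of the markers of the sorted gate, Kit had a mean signal of 1082 ± 316 (SD, n = 3) in controls against 563 ± 51.7 (SD, n = 3) in knockouts, and Ly6a, which encodes Sca1, was not analysed here. Markers of gated-out lineages were dim: the 4 measured (Cd3e, Cd4, Cd8a and Itgam) had signals of 2.0 to 114.6 over all arrays.

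All 37 mitotic genes had a higher mean log2 signal in Med12 knockouts than in controls, by modest amounts, and 0 of them passed limma's test after adjustment over all probe sets. Differences are of log2(signal + 16), knockout minus control; they ran from 0.07 for Ect2 to 1.12 for Nuf2 and Kif20a, with a median of 0.64. The median over all genes was -0.05. On the scale of mean signals the knockout level was 1.04 to 2.30 times the control level, and it was at least 2 times the control level for 5 genes, Cdk1, Kif20a, Cenpa, Nuf2 and Anln. The lowest adjusted p was 0.0906, for Ckap2l. By the same rule 0.989% of all genes were called, 0.352% higher and 0.638% lower, as were 0.762% of all probe sets, so a count of 0 in 37 genes is near the background.

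Single arrays show how far the groups lay from each other. In 22 of the 37 genes every knockout signal lay above every control signal, against 9.85% of all genes, and in 0 genes were all knockout signals below. Before adjustment, 24 of the 37 had a limma p under 0.05 with knockouts higher and 0 with knockouts lower, against 7.84% and 10.3% of all genes, 18.2% together. The mean was higher in knockouts for 42.2% of all genes and lower for 57.8%. Among the 9981 genes as bright as the dimmest mitotic gene, 51.6% had a higher mean, 15.8% had groups apart with knockouts higher and 13.0% had an unadjusted p under 0.05 in that direction. The count of 24 fell to 13 without control replicate 2 or knockout replicate 3, to 14 without control replicate 3 or knockout replicate 2, and to 10 with 1 in place of 16 added before log2. The 95% interval of the difference held a 2-fold change, a log2 difference of 1, for 28 genes and lay below it for 9.

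**Figure D1:**
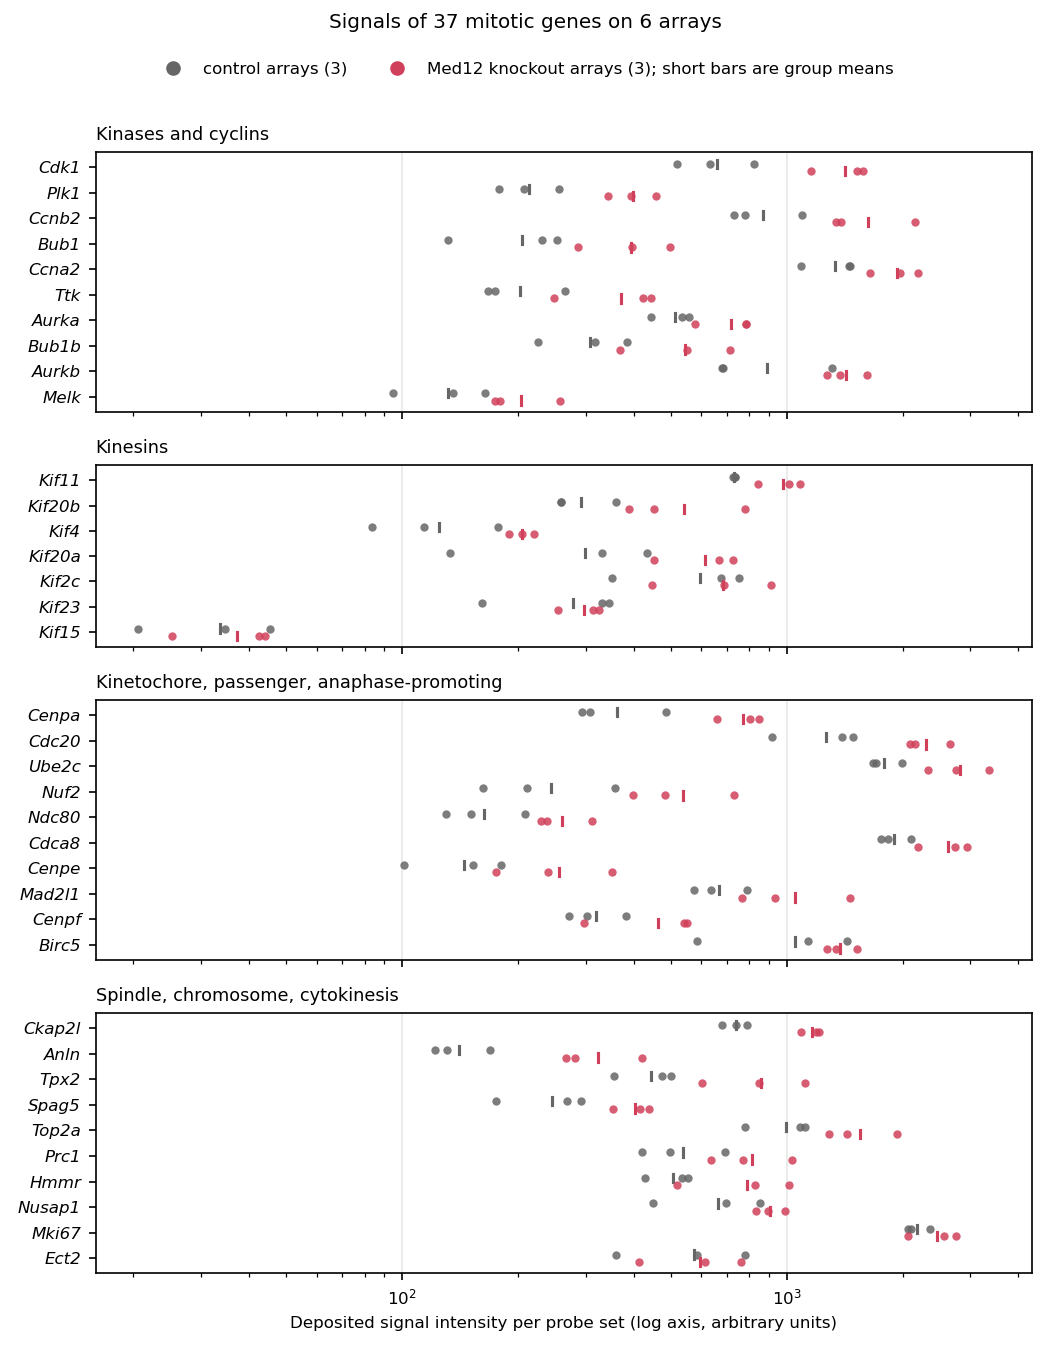
Deposited signal of each of 37 mitotic genes on every array, on a log axis; grey points are control arrays, red points Med12 knockout arrays, short bars group means, and genes are ordered by unadjusted p within each role group. The red points lie to the right of all grey points in 22 genes.

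Many promoters of these genes shared the CHR and NF-Y motifs that are typical of G2 and M phase genes. The list was made of such genes, so a share above that of all promoters was likely beforehand. RefSeq promoters (GRCm38.p6, 250 bases before to 50 after the first listed start) were found for 34 of the 38 genes, Ccnb1 among them. The CHR letters TTTGAA, searched on both strands, occurred in 26 of the 34, or 76.5%, against 18.1% of 27025 promoters of the same length. They began within 50 bases of the start in 24, or 70.6%, against 4.92% of all promoters. The NF-Y letters CCAAT, on both strands, occurred in 24, or 70.6%, against 37.9% of all, and both motifs together in 21, or 61.8%, against 7.12%. E2F letters, TTTCGCGC or TTTGGCGC on both strands, occurred in 2 of the 34, Cdk1 and Kif15, or 5.88% against 0.833%. None of these motifs was matched in Melk, Birc5, Nuf2, Mad2l1 and Nusap1. On the reverse strand the NF-Y letters read ATTGG. Those of CHR then read TTCAAA. These are letter matches, not measured binding sites. The 150 bases before the start are shown for the gene of smallest unadjusted p in each role group, because they show how closely the motifs lie together; capitals mark NF-Y, CHR and E2F matches on either strand, and each line reads 5′ to 3′ on the strand of the gene.
Cdk1: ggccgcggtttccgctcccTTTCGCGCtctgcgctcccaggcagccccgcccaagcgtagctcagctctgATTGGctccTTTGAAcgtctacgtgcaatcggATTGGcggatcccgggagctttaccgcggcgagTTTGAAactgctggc
Kif11: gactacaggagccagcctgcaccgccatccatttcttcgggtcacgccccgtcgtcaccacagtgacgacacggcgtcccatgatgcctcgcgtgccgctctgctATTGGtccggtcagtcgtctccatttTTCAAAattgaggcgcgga
Cenpa: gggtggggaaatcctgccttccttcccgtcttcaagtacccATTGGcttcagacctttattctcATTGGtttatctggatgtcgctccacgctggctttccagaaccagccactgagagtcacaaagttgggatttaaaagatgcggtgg
Ckap2l: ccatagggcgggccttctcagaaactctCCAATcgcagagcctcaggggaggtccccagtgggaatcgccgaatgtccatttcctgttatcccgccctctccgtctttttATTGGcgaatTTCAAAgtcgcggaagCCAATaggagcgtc
These windows lie at chr10:69352913-69353062 (minus strand) for Cdk1, chr19:37376232-37376381 (plus strand) for Kif11, chr5:30666736-30666885 (plus strand) for Cenpa and chr2:129297213-129297362 (minus strand) for Ckap2l. In Cdk1 the E2F match began 131 bases before the start, and 2 CHR matches began 71 and 15 bases before it, with NF-Y matches at 80 and 48 bases before it. Kif11 had 1 match of each of NF-Y and CHR, 45 and 19 bases before the start. In Cenpa the CHR match lay downstream, at base 17 of the transcript, behind 2 NF-Y matches.

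**Figure D2:**
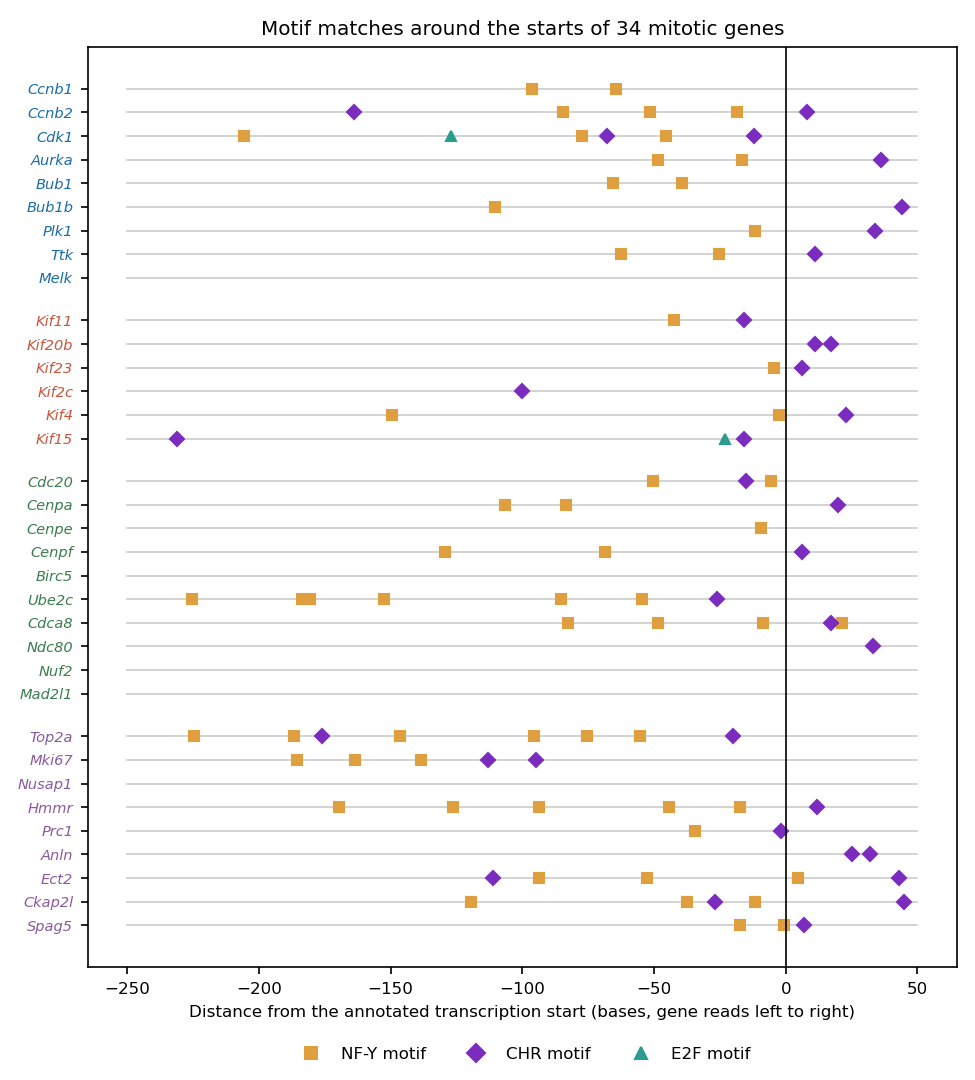
Positions of NF-Y, CHR and E2F motif matches from 250 bases before to 50 after the annotated start of 34 mitotic genes, coloured by role group as in the plot of differences. CHR matches cluster around the start, beginning within 50 bases of it in 24 promoters.

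Kinases and cyclins, the switches of mitotic entry and of the spindle checkpoint, had a median difference of 0.79 over 10 genes. Differences among role groups were not tested. Cdk1, the kinase that drives entry into mitosis, had signals of 633.6, 518.7 and 822.3 in controls and 1155.5, 1574.8 and 1524.1 in knockouts. The lowest knockout array was above the highest control array. Its log2 difference was 1.10 (SE 0.22; 95% interval 0.56 to 1.64; adjusted p = 0.0981).

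Plk1, the Polo kinase of spindle poles and cytokinesis, had signals of 255.3, 178.6 and 207.4 in controls and 343.0, 456.2 and 393.4 in knockouts. The groups were again apart, with a log2 difference of 0.85 (SE 0.18; adjusted p = 0.108). Ccnb2, a B-type cyclin that partners Cdk1, had signals of 1096.7, 778.9 and 727.8 in controls and 1384.0, 1341.1 and 2157.0 in knockouts. Knockout replicate 3 stood well above the other knockout arrays, and the log2 difference was 0.88 (SE 0.26; adjusted p = 0.187). Melk, a kinase of the AMPK family that dividing cells express, had the largest p of the group. Its signals were 164.2, 94.5 and 135.5 in controls and 174.6, 179.6 and 257.9 in knockouts. These were apart by a small margin, and the log2 difference of 0.59 had an interval from -0.01 to 1.18. It was 0.39 without control replicate 2.

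The remaining kinases and cyclins lay between these. The checkpoint kinase Bub1 had a log2 difference of 0.90, its relative Bub1b 0.77 and the checkpoint kinase Ttk 0.81. Aurkb, the kinase of the chromosomal passenger complex, was at 0.73, and Aurka, the kinase of spindle poles, at 0.46. Ccna2, the A-type cyclin of S and G2 phase, was at 0.54. The adjusted p values of these 6 genes were 0.239 to 0.305. Knockout and control signals overlapped in Ttk, Bub1b and Aurkb. In Aurkb the overlap came from control replicate 1, at 1312.4 against 682.4 and 678.1 on the other control arrays.

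Kinesins, the motors that slide, sort and depolymerise microtubules, had a median difference of 0.41 over 7 genes, or 0.46 when all probe sets of a gene were averaged, and split into 4 genes with groups apart and 3 with overlap. Kif11, the motor that pushes spindle poles away from each other, had signals of 735.4, 722.9 and 733.0 in controls and 840.8, 1084.1 and 1011.6 in knockouts. The control arrays were nearly equal, and the log2 difference was 0.41 (SE 0.14; adjusted p = 0.240), or 0.68 after median centring. Kif20b, a motor of late cytokinesis, had signals of 258.4, 359.9 and 259.5 in controls and 389.7, 451.4 and 778.9 in knockouts. Its groups did not overlap, and its log2 difference was 0.80 (SE 0.29; adjusted p = 0.268). Knockout replicate 3 stood high, and without it the difference was 0.51.

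Kif4, a chromosome-bound motor that also works at the central spindle, had signals of 177.3, 114.3 and 83.6 in controls and 189.8, 204.9 and 220.9 in knockouts. The knockout arrays were close together and the control arrays spread over more than a 2-fold range, with a log2 difference of 0.70 (SE 0.26; adjusted p = 0.269). Kif20a, a motor of the central spindle, had the largest difference of the kinesins, 1.12, and the widest interval, 0.04 to 2.20.

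In the other 3 kinesins the brightest probe set differed by less than the spread between arrays. Kif15, a motor that supports the bipolar spindle, had signals of 34.7, 20.6 and 45.3 in controls and 42.4, 44.0 and 25.3 in knockouts. The groups overlapped fully, with a log2 difference of 0.12 (95% interval -0.50 to 0.73). Kif23, a component of the central spindle needed for cytokinesis, was at 0.15 (95% interval -0.59 to 0.90), with mean signals of 278.6 in controls and 297.6 in knockouts. Its second probe set, with means of 263.4 and 221.8, went the other way at -0.25, with overlap. The third, with means of 4.6 and 6.2, was at 0.13, also with overlap. Kif2c, which depolymerises microtubules at centromeres, was at 0.21 (95% interval -0.72 to 1.14). The other 3 probe sets of Kif2c, all dimmer, were higher too. One had signals of 119.8, 92.2 and 119.9 in controls and 139.5, 242.8 and 219.8 in knockouts, groups apart with a log2 difference of 0.75 (adjusted p = 0.207). The remaining ones were at 0.58, with overlap, and at 0.29, apart at mean signals of 10.7 and 16.6. The direction of the brightest probe set of all 3 genes depended on single arrays: Kif15 and Kif2c were lower in knockouts without control replicate 2, Kif2c without knockout replicate 3, and Kif23 without control replicate 3.

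Kinetochore, chromosomal passenger and anaphase-promoting genes had a median difference of 0.64 over 10 genes. Cenpa, the histone H3 variant that marks centromeres, had signals of 486.3, 308.7 and 293.3 in controls and 658.4, 848.2 and 803.8 in knockouts. The groups were apart by a wide margin, with a log2 difference of 1.08 (SE 0.23; adjusted p = 0.108). Its 3 probe sets differed in direction. A second probe set had signals of 159.5, 122.0 and 210.1 in controls and 89.4, 67.5 and 64.3 in knockouts, also apart but in the opposite direction, at a log2 difference of -0.98 (adjusted p = 0.122). The third was at 0.02, and the mean of all 3 gave 0.04 for the gene.

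Cdc20, the activator of the anaphase-promoting complex, had signals of 1488.1, 1390.0 and 916.1 in controls and 2092.2, 2150.0 and 2662.0 in knockouts. All 3 of its probe sets had groups apart, with log2 differences of 0.88, 1.12 and 1.04 (adjusted p = 0.151, 0.151 and 0.0945). Ube2c, the ubiquitin-conjugating enzyme of the same complex, had signals of 1673.5, 1998.0 and 1703.5 in controls and 2336.4, 3365.4 and 2761.4 in knockouts. No knockout array overlapped the controls, and the log2 difference was 0.64 (SE 0.18; adjusted p = 0.172).

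Birc5, the survivin subunit of the passenger complex, had the largest p of the group. Its signals were 1133.8, 1431.0 and 585.9 in controls and 1274.0, 1518.6 and 1340.3 in knockouts. Only control replicate 3 stood low, and the log2 difference of 0.47 had an interval from -0.34 to 1.29. It was 0.11 without control replicate 3 and 0.74 without control replicate 2. Among the outer kinetochore proteins that grip microtubules, Nuf2 was at 1.12 (SE 0.35; adjusted p = 0.207) and its partner Ndc80 at 0.64 (SE 0.21; adjusted p = 0.236), with groups apart in both. The passenger subunit Cdca8 was at 0.45, also apart. The kinetochore motor Cenpe (0.74), the checkpoint protein Mad2l1 (0.61) and the large kinetochore protein Cenpf (0.48) had overlapping groups.

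Spindle, chromosome and cytokinesis genes had a median difference of 0.61 over 10 genes, or 0.33 when all probe sets of a gene were averaged. Ckap2l, a spindle protein, had signals of 680.6, 790.4 and 738.3 in controls and 1189.0, 1090.7 and 1214.1 in knockouts. Both groups were tight and well apart, with a log2 difference of 0.65 (SE 0.12; 95% interval 0.35 to 0.95; adjusted p = 0.0906). Anln, the actin-binding scaffold of the contractile ring, had signals of 130.8, 169.1 and 121.9 in controls and 420.6, 281.7 and 267.1 in knockouts. This was the largest ratio of mean signals among the 37 genes, 2.30, with a log2 difference of 1.10 (SE 0.22; adjusted p = 0.0996). Its dimmer second probe set was at -0.27, and the mean of both gave 0.41.

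Tpx2, which activates Aurora A on spindle microtubules, had signals of 355.3, 500.7 and 472.9 in controls and 602.8, 848.7 and 1113.4 in knockouts. The groups were apart, with a log2 difference of 0.90 (SE 0.26; adjusted p = 0.190). The brightest of its other 3 probe sets had means of 400.4 in controls and 434.0 in knockouts and was at 0.16, with overlap. The remaining ones were at 0.09, with means of 10.0 and 11.7, and at -0.17, with means of 5.4 and 2.9. The mean of all 4 gave 0.25. Ect2, the exchange factor that activates RhoA at the division plane, had signals of 777.9, 360.8 and 586.1 in controls and 760.5, 413.4 and 613.3 in knockouts. These overlapped fully. The log2 difference of 0.07 (95% interval -0.77 to 0.92) turned to -0.22 without control replicate 2, to -0.12 without knockout replicate 1, and was just below 0 after loess normalization.

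Of the other genes of that group, the spindle protein Spag5 (0.70) and topoisomerase gene Top2a (0.63) had groups apart. The microtubule bundler Prc1 (0.59), the spindle proteins Hmmr (0.58) and Nusap1 (0.48) and the proliferation antigen gene Mki67 (0.17) had overlapping groups. Mki67 had signals of 2102.8, 2068.5 and 2361.6 in controls and 2064.7, 2761.1 and 2559.6 in knockouts. Knockout replicate 1 was the lowest of all 6 arrays, and the 95% interval of -0.21 to 0.55 lay below a 2-fold difference.

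**Figure D3:**
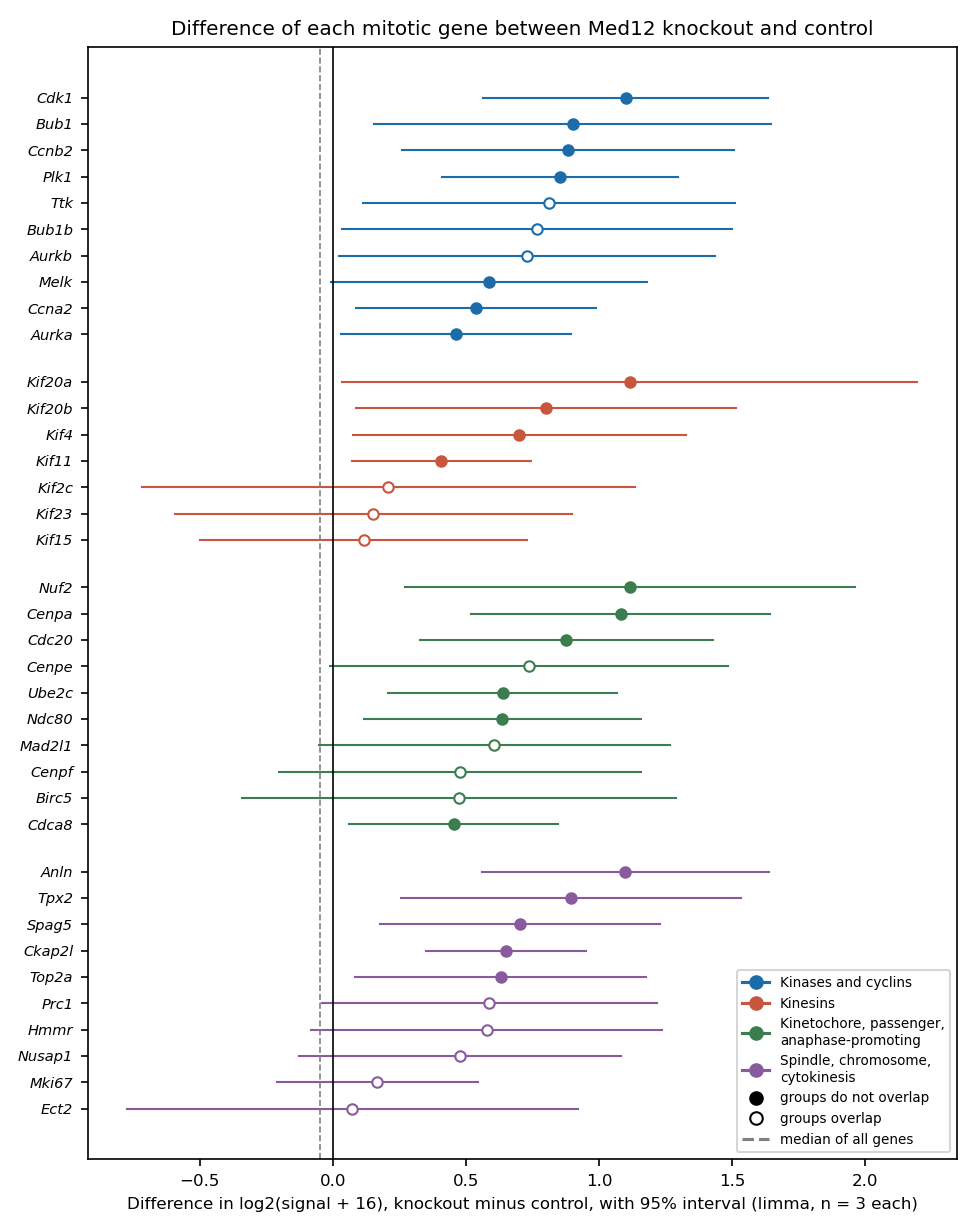
Difference in log2(signal + 16), knockout minus control, of each of 37 mitotic genes with its 95% interval from limma (n = 3 per group), by role group; filled points have groups that do not overlap and the dashed line is the median of all genes, -0.05. All points lie right of 0, and 24 intervals exclude 0 before adjustment.

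Probe sets of a gene mostly pointed the same way. Of the 23 genes with more than 1 probe set, 16 had all of them higher in knockouts and 7 had probe sets of opposite sign. In all, 71 of 78 probe sets were higher, 38 of them with groups apart and 37 with a limma p under 0.05 before adjustment. Among all probe sets 38.8% were higher, 7.61% apart in that direction and 5.81% past that p, while 61.2% were lower, 13.3% apart and 9.89% past it. None of the 78 passed limma's test after adjustment. The 7 lower probe sets belonged to Aurka, Ttk, Kif23, Cenpa, Anln, Top2a and Tpx2. In 5 of them both group means were under 50, and the Cenpa probe set described above was the only 1 of the 7 with groups apart. Some higher probe sets were as dim. Those with groups apart included probe sets of Kif20b, Kif2c and Cenpf. Their control means were 23.4, 10.7 and 14.9, and their knockout means 46.0, 16.6 and 21.7.

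The arrays of a group also differed from each other in these genes. Relative to the control mean of each gene, the median log2 level was 0.20 on control replicate 1 and -0.07 on both other control arrays. The knockout medians were 0.46, 0.62 and 0.80 for replicates 1, 2 and 3. Over all genes the same medians were between -0.08 and 0.00. Control replicate 1 was the highest control array in 21 of the 37 genes, and knockout replicate 1 the lowest knockout array in 22. For kinesins the median on knockout replicate 1, 0.28, was below that on control replicate 1, 0.36. On knockout replicates 1, 2 and 3, 26, 30 and 32 of the 37 genes were above all 3 control arrays. Over all 18193 genes the counts were 4039, 4579 and 4405. Below all 3 control arrays were 1, 0 and 0 of the 37, and 6071, 5322 and 6393 of all genes. The median SD of log2 signals over the 37 genes was 0.34 in controls and 0.29 in knockouts.

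**Figure D4:**
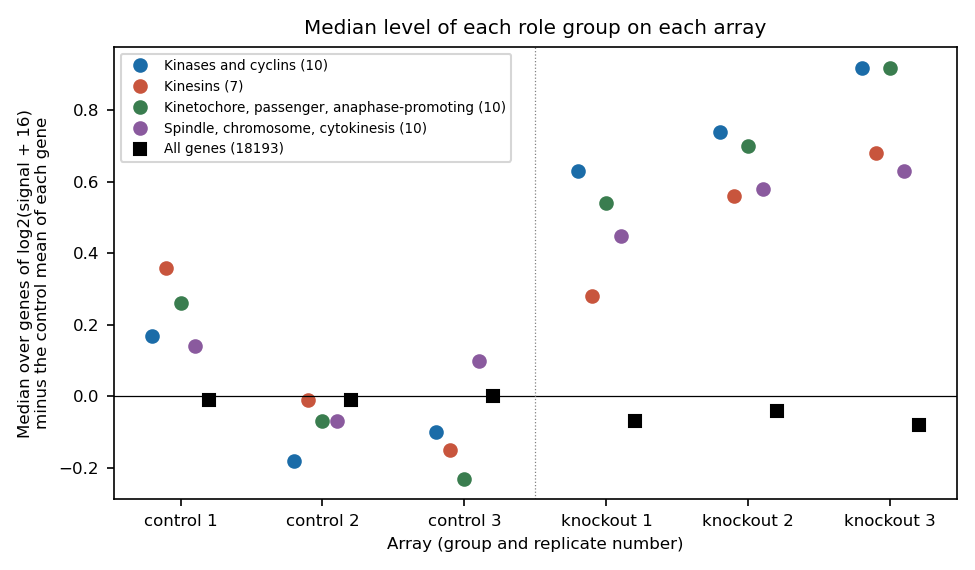
Median over the genes of each role group of log2(signal + 16), taken relative to the control mean of each gene, on each of the 6 arrays; black squares are all 18193 genes. Knockout medians of the role groups lie between 0.28 and 0.92 and control medians between -0.23 and 0.36, while all genes stay near 0.

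Scaling between arrays changed the size of the differences but not the direction of the group. Centring each array on its median raised the median over all genes from -0.05 to 0.22 and that of the mitotic genes to 0.91. It moves all genes of an array by the same amount, so the distance of 0.69 between these medians could not change. After this centring Cdk1 (1.37; adjusted p = 0.0493) and Anln (1.37; adjusted p = 0.0406) passed limma's test. The calls over all probe sets then went from 99 higher and 244 lower to 431 higher and 262 lower. All 37 genes were higher after quantile normalization, and 36 after loess normalization, with Ect2 as the exception. After median centring all 37 were higher too, which was fixed because every difference moved up. Without single arrays, 34 to 37 genes were higher, the lowest count being without control replicate 2.

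Most other mitotic genes were also higher in knockouts. Of 101 genes on 6 further lists, 99 were measured, and 89 had a higher mean in knockouts, against 42.2% of all genes. In 47 the groups were apart with knockouts higher, against 9.85% of all genes. In limma's test 1 passed, against the 0.989% of all genes called. That gene was Ska1, a subunit of the complex that couples kinetochores to shrinking microtubules. Its signals of 94.0, 84.6 and 88.1 in controls and 241.0, 230.6 and 257.5 in knockouts gave a log2 difference of 1.30 (SE 0.12; adjusted p = 0.0293). Both groups were tight, but the call was lost without any 1 of the 6 arrays, with a trended prior, with the replicate number as a block and with 1 added before log2.

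Genes named from these lists are those of smallest unadjusted p, not of largest difference. The 31 further kinetochore and centromere genes were all higher, with a median of 0.58; the outer kinetochore scaffold Knl1 was at 0.77 (adjusted p = 0.0652). All 14 condensin, cohesin and separase genes were higher too, with a median of 0.56; the smallest p were those of the condensin genes Smc2 (0.69; adjusted p = 0.0996) and Ncapd3 (0.73; adjusted p = 0.126). The 7 cytokinesis genes had a median of 0.43, with Racgap1, the partner of Kif23 in the central spindle, at 0.95 and Shcbp1 at 0.70. Of 20 spindle and centriole genes 17 were higher, with a median of 0.52; the centrosomal kinase Nek2 was at 0.91 and the centriole kinase Plk4 at 1.15 (adjusted p = 0.0724 and 0.0932).

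Genes of the mitotic entry list had a median of 0.47, with 9 of 12 higher. The smallest p in limma's test were those of Ccnf, an F-box cyclin (0.98, adjusted p = 0.0962), and Gtse1, a G2 and S phase protein (1.70, adjusted p = 0.209). Gtse1 had signals of 84.1, 52.1 and 87.5 in controls and 174.1, 175.2 and 650.1 in knockouts. Its groups were apart, and knockout replicate 3 stood well above the other knockout arrays. The anaphase-promoting complex list, which consists mostly of core subunits, had the lowest median of these lists, 0.26, with 11 of 15 higher. Its genes of smallest p were the inhibitor Fbxo5, with signals of 168.1, 283.9 and 355.1 in controls and 597.1, 531.9 and 471.1 in knockouts (adjusted p = 0.176), and the core subunit Cdc23 (0.63).

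Genes of the preceding S phase had smaller differences. Of 20 DNA replication genes 15 were higher, 7 with groups apart, 1 was lower with groups apart, and 0 passed. Of all genes 42.2% were higher, 9.85% were apart in that direction, 13.6% were apart with knockouts lower, and 0.989% were called. The median was 0.18, and the genes of smallest p were the ribonucleotide reductase subunit Rrm2 at 0.65 and the dimmer thymidylate synthase gene Tyms at -0.51 (adjusted p = 0.154 and 0.149). CHR letters occurred in 2 of the 17 of these promoters that were found, or 11.8%, and in 34 of 82 promoters of the other mitotic genes, or 41.5%. NF-Y letters occurred in 12 of the 17, or 70.6%, the same share as in the 34 promoters above, and in 50 of the 82, or 61.0%. E2F letters occurred in 6 of the 17, or 35.3%, and in 5 of the 82, or 6.1%. CDK inhibitors, which hold cells out of the cycle, had a median of 0.02 over 7 genes. Cdkn2c, an inhibitor of CDK4 and CDK6, was at 0.84 (adjusted p = 0.0610) and its relative Cdkn2d at 0.64 (adjusted p = 0.223), both with groups apart, while Cdkn1b was at -0.27 and Cdkn1a at 0.23, both with overlapping groups. The other 3, Cdkn2a, Cdkn1c and Cdkn2b, had mean signals under 16 in both groups. These medians were not tested against that of the 37 mitotic genes.

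Markers of several blood lineages passed the test between the same groups, in which 0.352% of all genes were called higher and 0.638% lower. Of 10 erythroid genes 5 rose (Rhag, Car1, Gata1, Epor and Klf1) and 0 fell in limma's test, with a median difference of 1.89; their summed signal was 1846.5 to 2455.7 on control arrays and 5987.8 to 9946.4 on knockout arrays. The haemoglobin gene Hba-a1 was under 16 on every array. Slc4a1, the red cell anion exchanger, went the other way without passing, with signals of 23.2, 185.8 and 69.3 in controls and 11.8, 13.9 and 13.2 in knockouts (log2 -1.60; adjusted p = 0.260). Of 8 granulocyte-monocyte progenitor genes 6 fell (Elane, Irf8, Ctsg, Mpo, Prtn3 and Csf1r) and 0 rose. Their summed signal was 8663.5 to 16511.1 in controls and 851.5 to 1817.0 in knockouts. Of 6 early lymphoid genes 3 fell (Dntt, Rag2 and Il7r) and 0 rose, with summed signals of 2921.1 to 4208.4 and 27.4 to 163.5. Stem cell genes had a median of -0.43 over 6, and Hlf fell among them in limma's test (log2 -2.17, adjusted p = 0.0479). The others had overlapping groups, with Procr, Fgd5 and Mecom at -0.86, -0.56 and -0.29 and Slamf1 and Hoxb5 at 0.49 and 0.09. Megakaryocyte genes had a median of 0.19 over 5, and Itga2b rose among them (1.56; adjusted p = 0.0431). Gp1bb was at 1.61 (adjusted p = 0.0921), and Pf4, Gp9 and Vwf were at 0.10, 0.15 and 0.19 with overlapping groups. The summed signals were 3053.2 to 4451.3 and 4656.5 to 6062.8. With 1 array left out, 0 to 10 probe sets were called in all in place of 343. These marker levels differed between the same groups as the mitotic genes, some higher and some lower in knockouts. Their part in the mitotic difference was not tested. In these bulk samples, more dividing cells and more mitotic RNA per cell cannot be told apart.

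**Figure D5:**
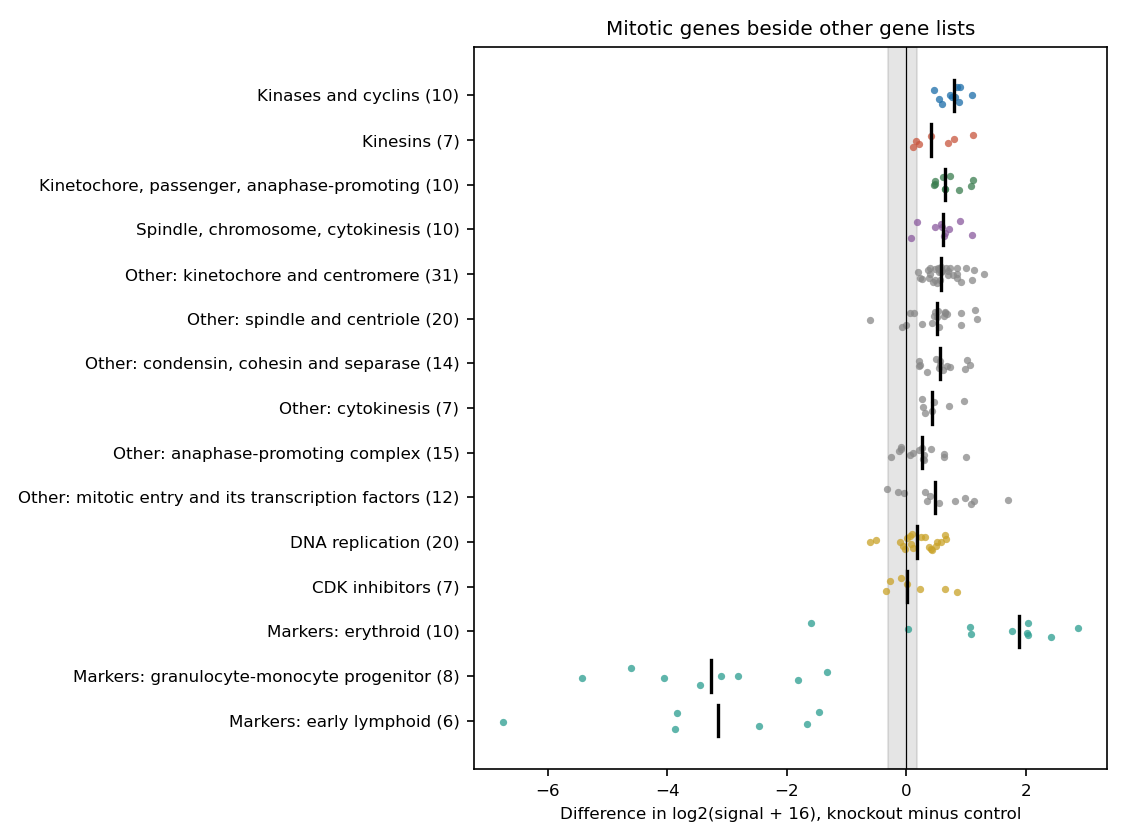
Difference in log2(signal + 16), knockout minus control, of single genes (points) with list medians (black bars), for the 4 role groups, 6 lists of other mitotic genes, DNA replication genes, CDK inhibitors and 3 marker lists; the grey band spans the interquartile range of all genes, -0.31 to 0.17. The medians of the 4 role groups, 0.41 to 0.79, lie right of the band, as do the 6 medians of other mitotic lists. The median of DNA replication genes, 0.18, lies just past the same edge.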

How the data were processed

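Total RNA (5 ng) was amplified and biotin-labelled with NuGEN Ovation kits, per the labels' protocols. The authors deposited 1 linear signal intensity per probe set and array; RMA is named in the submitters' processing notes without a version, but the deposited intensities include zeros and have the same mean, 150, on every array after leaving out 2% at each end, so the method that made them is not known here. No values per probe or detection calls were used, so the precision rests on the number of arrays.

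Values were taken as log2(signal + 16), which understates differences of dim genes. Leaving out 64 controls of 45101 probe sets, 45037 were tested with limma 3.58.1 in R 4.3.3 (lmFit and eBayes, two-sided, 4 residual and 1.96 prior degrees of freedom, Benjamini-Hochberg over all 45037, threshold 0.05). Means and SDs are of deposited signals. Annotation gave 34945 probe sets 1 symbol. The fit was tested on simulated data. Members and lists were chosen with earlier results of these data known. Signals by array are given, in each role group, for the 3 genes of smallest and the 1 of largest unadjusted p, and up to 2 genes are named per list of other mitotic genes; further names (Mki67, Rrm2, Tyms, CDK inhibitors and markers) were chosen after their values were seen. Genes without a probe set of 1 symbol were not analysed here. Promoters are RefSeq, GRCm38.p6.

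Alternatives were other priors, array weights, a replicate block, median centring, quantile normalization, other offsets and a floor, filters on dim probe sets, averaging a gene's probe sets, and leaving out each array; loess normalization was added after the data were seen. The labels do not say that replicate numbers pair mice.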

Additional observations from a re-analysis of the deposited data

How the results depend on the processing

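Over 18 alternatives, the 16 genes given array by array kept their direction in 284 of 288 values. Many of these values could not reverse. The trended prior, the replicate block and the filters on dim probe sets leave a difference as it is, and median centring raised every difference. The exceptions were Ect2 without control replicate 2 and without knockout replicate 1 (-0.12) and after loess normalization (-0.00033), and Kif15 without control replicate 2. Without 1 array, Ect2 ran from -0.22 to 0.32 and Kif15 from -0.09 to 0.29. Kif2c and Kif23, which are not among these 16 genes, were also lower in knockouts without some single arrays. No mitotic gene of the 37 passed under any alternative except median centring, where 2 genes and 2 probe sets did; the lowest adjusted p elsewhere ran from 0.0504 (64 added before log2) to 0.216 (1 added). Median centring also moved the median difference from 0.64 to 0.91, and those of the role groups to 1.06 (kinases and cyclins), 0.68 (kinesins), 0.91 (kinetochore, passenger and anaphase-promoting) and 0.88 (spindle, chromosome and cytokinesis), by about the shift of all genes. The last was 0.33 with the mean of all probe sets. Leaving out 1 array gave 13 to 22 genes at an unadjusted p under 0.05 in place of 24, and 10 were left with 1 added before log2.

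Over all probe sets, 343 calls became 693 after median centring, 712 and 763 without the dimmest 25% and 50%, 84 with a floor at 16, 42 with 1 added, and 0 to 10 without 1 array. Calls among other mitotic genes, 1 at the main setting, became 7 after median centring, 2 with 64 added, and 0 with 1 added, with a trended and robust prior or without any 1 array. With the replicate number as a block, 0 probe sets and 0 other mitotic genes passed in limma's test; before adjustment, p was under 0.05 for 6752 probe sets and for 17 of the 37 mitotic genes. Deviations of same-numbered arrays correlated at 0.0190, 0.0193 and 0.00193 over probe sets, and those of differently numbered arrays at -0.0568 to 0.0341. Such deviations, taken over all probe sets with many dim ones among them, cannot tell whether same-numbered samples were paired. Causes of the other changes were not tested.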
